A study of Mus musculus with 14 samples.

Results

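Nuclear genes for the last steps of mitochondrial respiration were examined in quadriceps muscle of HDAC3 knockout and wild-type mice. The set holds the genes whose symbols begin with Uqcr, Cox4 to Cox8 or Atp5, together with Cyc1 and Cycs. It counts 45 of the 24354 genes in the deposited expression table. Of these, 9 belong to complex III, 1 is cytochrome c, 17 belong to complex IV, 15 to ATP synthase, and 3 encode related proteins outside the complexes. RNA-seq libraries came from 2 groups of 3: HDAC3 knockout (KO) and HDAC3 wild-type (WT) male mice of strain C57B/6 (as the labels spell it), 4 months old, at rest, on chow, untreated, at Zeitgeber time (ZT) 10, that is 10 hours after lights on. The labels say neither how HDAC3 was deleted, nor in which cells, nor whether the 3 libraries of a group came from separate animals. The p-values therefore measure only the spread between these libraries, which may be technical.

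Complex III passes electrons from ubiquinol to cytochrome c, and complex IV passes them from cytochrome c to oxygen. Both pump protons, and ATP synthase uses the resulting gradient to make ATP. Muscle depends on this chain for sustained work. Several complex IV subunits exist as isoforms, and heart and skeletal muscle use their own forms of subunits VIa, VIIa and VIII, encoded by Cox6a2, Cox7a1 and Cox8b in mice, in place of Cox6a1, Cox7a2 and Cox8a.

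Promoters of muscle-type and other isoforms are shown first, since their letters differ between the members of a pair. Of the 45 genes, 35 have an entry in the RefSeq promoter table, which gives 250 bases before and 50 after the start in GRCm38.p6. Cox6a2 has none there. Motifs known from respiratory or muscle genes were searched for, among them GCGCA and GCGC with 1 base between them for NRF1, CCGGAAG for GABP and other ETS factors, GGGCGG for Sp factors, CAGCTG, an E-box bound by myogenic factors, and the TATA box TATAAA. A further E-box, CACGTG, is bound by the clock factors BMAL1 and CLOCK. Matches on either strand are in capitals in the lines that follow, and no matches overlap each other there. The first 5 promoters compare muscle-type with other isoforms, and the last belongs to a subunit c gene that returns below. Cox8b lies at chr7:140900397-140900696 on the minus strand, Cox8a at chr19:7217567-7217866 on the minus strand and Cox7a1 at chr7:30183921-30184220 on the plus strand. Cox7a2 lies at chr9:79759804-79760103, Cox6a1 at chr5:115348909-115349208 and Atp5g1 at chr11:96075582-96075881, each on the minus strand.
Cox8b: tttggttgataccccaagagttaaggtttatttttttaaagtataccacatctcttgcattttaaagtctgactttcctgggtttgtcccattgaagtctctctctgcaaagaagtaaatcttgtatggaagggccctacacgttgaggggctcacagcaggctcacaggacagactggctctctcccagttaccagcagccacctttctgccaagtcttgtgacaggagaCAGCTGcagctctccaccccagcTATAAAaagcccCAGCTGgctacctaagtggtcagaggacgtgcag
Cox8a: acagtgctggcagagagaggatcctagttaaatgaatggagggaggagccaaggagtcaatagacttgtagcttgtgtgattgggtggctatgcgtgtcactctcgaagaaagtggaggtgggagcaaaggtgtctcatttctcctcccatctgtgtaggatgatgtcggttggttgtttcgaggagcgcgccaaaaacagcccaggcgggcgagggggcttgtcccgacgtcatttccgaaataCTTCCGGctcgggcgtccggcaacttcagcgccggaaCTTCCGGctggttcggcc
Cox7a1: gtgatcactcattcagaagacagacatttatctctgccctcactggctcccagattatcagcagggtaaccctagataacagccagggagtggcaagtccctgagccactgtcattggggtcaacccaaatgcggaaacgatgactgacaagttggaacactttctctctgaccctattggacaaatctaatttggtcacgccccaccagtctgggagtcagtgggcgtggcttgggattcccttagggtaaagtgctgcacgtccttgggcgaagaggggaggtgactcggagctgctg
Cox7a2: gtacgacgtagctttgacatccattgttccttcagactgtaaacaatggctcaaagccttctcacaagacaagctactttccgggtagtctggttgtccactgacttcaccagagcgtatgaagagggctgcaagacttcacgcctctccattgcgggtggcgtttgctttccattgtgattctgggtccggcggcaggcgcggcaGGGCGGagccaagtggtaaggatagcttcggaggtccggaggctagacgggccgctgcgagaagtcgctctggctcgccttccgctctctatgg
Cox6a1: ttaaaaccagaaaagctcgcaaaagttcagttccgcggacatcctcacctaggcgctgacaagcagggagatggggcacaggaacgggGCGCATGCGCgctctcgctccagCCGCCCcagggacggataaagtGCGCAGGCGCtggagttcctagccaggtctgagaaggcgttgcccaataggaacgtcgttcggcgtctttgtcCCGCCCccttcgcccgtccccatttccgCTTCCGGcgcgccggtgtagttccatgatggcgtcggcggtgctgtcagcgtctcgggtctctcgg
Atp5g1: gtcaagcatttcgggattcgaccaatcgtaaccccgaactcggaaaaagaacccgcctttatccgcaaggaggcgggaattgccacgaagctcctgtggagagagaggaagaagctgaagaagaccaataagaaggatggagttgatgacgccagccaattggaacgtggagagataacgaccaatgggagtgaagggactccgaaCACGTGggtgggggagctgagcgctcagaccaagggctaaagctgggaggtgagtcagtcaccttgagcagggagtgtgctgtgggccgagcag

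Both muscle-type promoters shown held fewer CpG than those of the other isoforms, with 2 in Cox8b and 7 in Cox7a1. Cox8a had 19, Cox7a2 had 20 and Cox6a1 had 32, against a median of 7 over 27025 mouse promoters of the same length and 19 over the 35 genes of the set. Cox8b carried a TATA box and 2 copies of CAGCTG. Among the 35 promoters, 2 held CAGCTG (Atp5b and Cox8b), a share of 5.71% against 16.1% of all promoters. TATAAA was in 3, or 8.57% against 14.2%. Cox6a1 had 2 NRF1 matches, a GABP match and 2 GC boxes. Of the 35, 7 held the NRF1 motif, which 4.78% of all promoters held, and 9 held the GABP motif, 25.7% against 9.12%. GGGCGG was in 13 (37.1% against 35.9%), and CACGTG in 5, Atp5g1 among them (14.3% against 7.24%). The MEF2 motif, CTA and TAG with 4 bases between them, was in 1 of 35, Cox5b, or 2.86% against 3.7%. The YY1 motif AANATGGC was in 5 (14.3% against 6.23%) and AAGGTCA, bound by estrogen-related receptors, in 4 (11.4% against 4.66%). These are letter matches within 300 bases and not sites of measured binding.

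Levels are in FPKM, fragments scaled to gene length and library depth, and can be compared between genes on that scale. FPKM sums ranged from 464777 to 495099 in KO and from 454359 to 484510 in WT libraries. Relative to WT replicate 1, depth read from the step size of low values was 0.660 to 0.832 in KO libraries and 0.831 and 1.02 in the other WT libraries. Hdac3 was at 5.51, 6.29 and 8.16 FPKM in KO libraries, against 33.3, 31.05 and 23.7 FPKM in WT libraries, a log2 difference of -1.99 (limma, adjusted p = 0.00632). Skeletal muscle markers were high in each library, with Acta1 between 8395 and 12215 FPKM in KO and between 8374 and 14394 in WT libraries. WT replicate 2 stood apart in 5 neutrophil genes, which summed to 540 FPKM there, against 3.42 to 7.50 in KO and 5.47 and 9.60 in the other WT libraries. Of these 5, the authors' deposited table called S100a8, S100a9, Ngp and Camp lower in KO, and limma called 0 (0 at an unadjusted p under 0.05). Cardiac genes summed to 1.45 to 2.21 FPKM in KO and 1.38 to 1.88 FPKM in WT, with Myl7 listed at 0 throughout. In bulk muscle, fewer cells of a type and less RNA per cell cannot be told apart.

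Transcripts of the set were abundant. The 45 genes summed to 28545, 31469 and 32103 FPKM in KO libraries and to 30345, 30440 and 29788 FPKM in WT libraries, which is 6.34% ± 0.178 of all FPKM in KO and 6.45% ± 0.279 in WT (SD, n = 3 each). The groups overlapped. Of the 57 genes with a mean of at least 1000 FPKM over the 6 libraries, 11 belonged to the set. Another 26 members lay between 100 and 1000 FPKM and 5 between 1 and 100 FPKM. Atp5k, which encodes a small membrane subunit of ATP synthase, was the highest, at 2315 ± 102 FPKM in KO and 2401 ± 170 FPKM in WT. Cox4i2, the form of subunit IV known from lung and low oxygen, was the lowest of the 42 genes that entered the test. The other 3 are testis-type isoforms of complex IV. Cox6b2 and Cox8c were listed at 0 in all 6 libraries, and Cox7b2 was listed at 0 in 5 and at 0.946 FPKM in WT replicate 3.

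**Figure D1:**
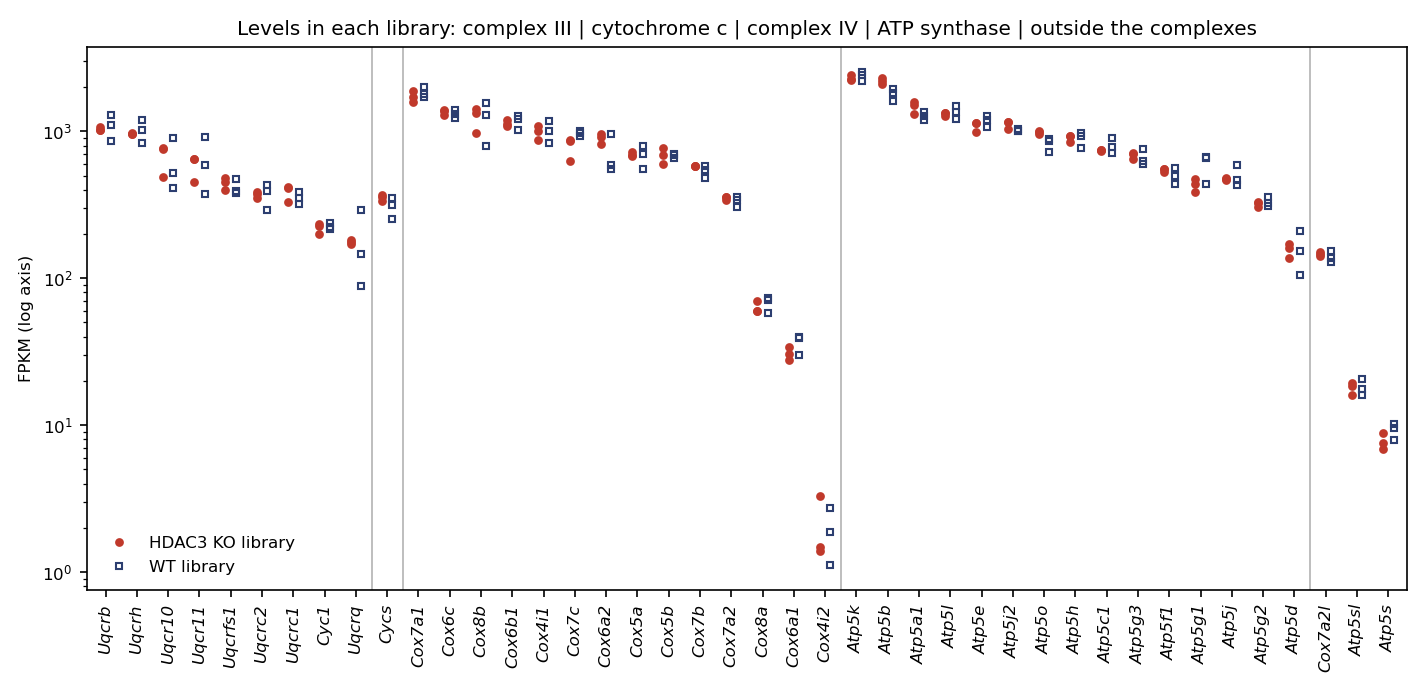
FPKM (log axis) of the 42 tested genes in each library, HDAC3 KO as filled circles left of WT as open squares, ordered by level within each complex. The means of 37 genes are above 100 FPKM, and Cox8a, Cox6a1 and Cox4i2 lie far below the other complex IV genes.

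No gene of the set passed the test between KO and WT. With limma on log2(FPKM + 1) over the 10501 genes with a mean of at least 1 FPKM, 0 of 42 members had an adjusted p under 0.05 (Benjamini-Hochberg), while 3.65% of all genes tested did (2.3% higher and 1.34% lower in KO). At an unadjusted p under 0.05 there were 2 members, Atp5b higher and Atp5g1 lower in KO, or 4.76% against 19.7% of all genes tested. In the authors' deposited table only Atp5g1, lower in KO, had a q-value under 0.05, or 2.38% of the members, against 10.8% of the genes tested there (5.9% higher and 4.94% lower in KO). KO and WT libraries did not overlap for 4 members, or 9.52% against 26.1% of all genes tested (14.2% with KO above and 11.9% with KO below). These were Atp5b, Atp5o and Atp5j2 with KO above, and Cox7c with KO below. The median log2 difference was 0.02 over the 42 members, with 23 above and 19 below 0, and 0.00 over all genes tested. Over the 581 genes with a mean of at least 100 FPKM, as 37 of the members have, it was 0.12.

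The 95% interval of the log2 difference had a median half-width of 0.29 for the members and 0.35 over all genes tested. For 41 of 42 members it lay within 1 log2 unit of 0, and for 33 within a 1.5-fold change in either direction. The exception to the wider bound was Uqcrq, with an interval from -0.69 to 1.05. RefSeq lists 14 pseudogenes whose symbols match the same name patterns, among them Cox7c-ps1. The handling of reads that match a gene and its pseudogene, not given in the sources used here, leaves the levels of such members uncertain.

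**Figure D2:**
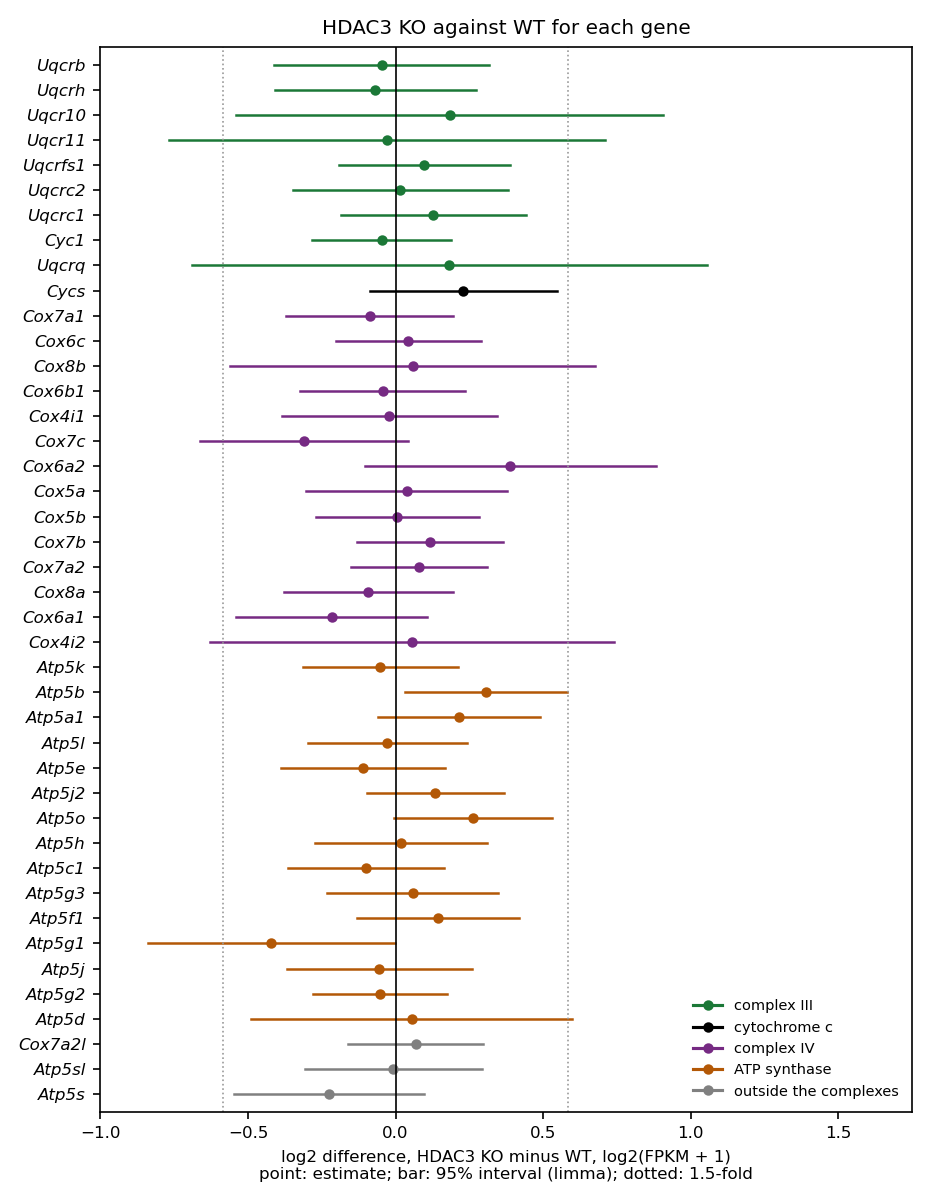
Log2 difference of each gene on the log2(FPKM + 1) scale, HDAC3 KO minus WT, with its 95% interval from limma and dotted lines at 1.5-fold. The bars of Atp5b and Atp5g1 alone leave out 0, and the widest bar is that of Uqcrq.

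Complex III had 9 members, 5 above and 4 below 0, with log2 differences between -0.07 and 0.18. The core proteins Uqcrc1 and Uqcrc2, which frame the complex on its matrix side, were at 386 ± 50.5 and 371 ± 17.3 FPKM in KO and at 353 ± 35.6 and 371 ± 73.6 FPKM in WT (SD, n = 3 each). Uqcrfs1, the Rieske iron-sulfur protein, averaged 445 ± 39.4 FPKM in KO and 416 ± 49.4 FPKM in WT. Cyc1, the cytochrome c1 that hands electrons on, was at 220 ± 18.2 and 227 ± 10.7 FPKM. None of these 4 passed the test, with limma adjusted p between 0.656 and 0.973.

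Uqcrq, Uqcr11 and Uqcr10, small subunits of complex III, had the widest relative spread between WT libraries within the complex, with coefficients of variation of 59.2%, 43.6% and 42.5%. Uqcrq, a subunit near the ubiquinone site, had 177, 182 and 171 FPKM in KO libraries, against 88.7, 146 and 289.5 FPKM in WT libraries. The KO libraries lay within a narrow band inside the WT range. Uqcr10 had 487, 755 and 774 FPKM in KO libraries, against 410.4, 522 and 907 FPKM in WT libraries. Uqcr11 had 454, 648 and 649 FPKM in KO libraries, against 374, 592 and 917 FPKM in WT libraries. In all 3, replicate 1 was the lowest and replicate 3 the highest WT library, and the groups overlapped. Uqcrb and the hinge protein gene Uqcrh ran the other way in WT. Uqcrb had 1027, 1066 and 1016 FPKM in KO libraries, against 1293, 1097 and 865 FPKM in WT libraries. Uqcrh had 958, 955 and 970.3 FPKM in KO libraries, against 1197, 1029.7 and 829.98 FPKM in WT libraries.

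Cycs, which encodes cytochrome c itself, had 337, 358 and 370.4 FPKM in KO libraries, against 350.5, 314 and 252 FPKM in WT libraries. KO was higher by 1.16-fold in the means, but the groups overlapped and the log2 difference of 0.23 ± 0.14 (SE) did not pass (limma, adjusted p = 0.407). It was 0.098 without WT replicate 3 (adjusted p = 0.645) and 0.34 without WT replicate 1 (adjusted p = 0.222).

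Complex IV had 14 members above the expression minimum, 8 above and 6 below 0. For subunit IV, the common isoform Cox4i1 stood at 986 ± 107 FPKM in KO and 1006 ± 170.2 FPKM in WT, and Cox4i2 at 2.05 ± 1.07 and 1.90 ± 0.807 FPKM. Cox5a, Cox5b, Cox6b1, Cox6c and Cox7b, which surround the catalytic core, ranged from 581 to 1358 FPKM in KO and from 538 to 1318 FPKM in WT. Their log2 differences lay between -0.04 and 0.12. Cox7c, another small subunit, had 624, 876 and 866 FPKM in KO libraries, against 999, 972 and 928 FPKM in WT libraries. All KO libraries lay below all WT libraries, with replicate 1 the lowest KO library. The log2 difference was -0.31 ± 0.15 (SE; limma, adjusted p = 0.313), and in the authors' deposited table q was 0.221. Without KO replicate 1 the log2 difference was -0.15 (limma, adjusted p = 0.556).

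Muscle-type isoforms made up most of each isoform pair. For subunit VIa, Cox6a2 had 814, 912 and 959.6 FPKM in KO libraries, against 556, 594 and 962 FPKM in WT libraries. Cox6a1 had 27.9, 30.5 and 34.0 FPKM in KO libraries, against 29.9, 39.0 and 39.5 FPKM in WT libraries. WT replicate 3 reached the KO level of Cox6a2, so the groups overlapped for either gene on its own. The log2 difference was 0.39 ± 0.21 for Cox6a2 (SE; limma, adjusted p = 0.365) and -0.22 ± 0.14 for Cox6a1 (adjusted p = 0.444). In the authors' deposited table Cox6a2 had a p-value of 0.0203 and a q-value of 0.126. Without WT replicate 3 the log2 difference of Cox6a2 was 0.64 and passed (limma, adjusted p = 0.0485), the only member to pass in any setting of limma tried. Without WT replicate 1 the difference was 0.24 (adjusted p = 0.582), and without WT replicate 2 it was 0.29 (adjusted p = 0.662), so its size depended on single WT libraries. Over its alternatives the adjusted p of Cox6a2 ranged from 0.0485 to 0.662.

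Within libraries, the ratio of Cox6a2 to Cox6a1 did separate the groups. It was 29.2, 29.9 and 28.2 in KO libraries, against 18.6, 15.2 and 24.3 in WT libraries. Every KO library lay above every WT library. Of single genes tested, 26.1% had groups without overlap in either direction, a share not counted over ratios of gene pairs. On the log2 scale the ratio of Cox6a2 to Cox6a1 averaged 4.86 ± 0.0411 in KO and 4.25 ± 0.339 in WT (SD, n = 3 each). The difference was 0.61. The exact permutation test gave p = 0.1 (two-sided), the smallest that 3 against 3 libraries allow, and 0.4 after Benjamini-Hochberg adjustment over the 4 ratios and shares tested. Cox6a2 held 96.7% ± 0.0918 of the pair's FPKM in KO and 94.9% ± 1.11 in WT.

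Subunits VIIa and VIII showed no such separation. Cox7a1 had 1589, 1718 and 1884 FPKM in KO libraries, against 1799, 2009.6 and 1709.9 FPKM in WT libraries. Cox7a2 had 357, 343 and 356 FPKM in KO libraries, against 358, 339 and 305 FPKM in WT libraries. Cox7a1 over Cox7a2 was 4.45, 5.003 and 5.29 in KO libraries, against 5.03, 5.93 and 5.602 in WT libraries, a log2 difference of -0.17 (exact permutation p = 0.2, adjusted 0.4). Without KO replicate 1 it was -0.098. Cox7a1, the highest complex IV gene, thus made up a smaller part of its pair than the other muscle-type isoforms did, 83.03% ± 1.25 in KO and 84.6% ± 1.09 in WT.

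Cox8b had 969.9, 1416 and 1334 FPKM in KO libraries, against 798, 1302 and 1561 FPKM in WT libraries. Cox8a had 69.8, 60.02 and 59.8 FPKM in KO libraries, against 73.5, 71.0 and 58.3 FPKM in WT libraries. In either group replicate 1 was the lowest for Cox8b. The ratio of Cox8b to Cox8a was 13.9, 23.6 and 22.3 in KO libraries, against 10.9, 18.3 and 26.8 in WT libraries, a log2 difference of 0.15 (exact permutation p = 0.7, adjusted 0.7). Its sign depended on WT replicate 1, without which it was -0.19, and it ran up to 0.46 without WT replicate 3. Cox8b held 94.98% ± 1.47 of the pair in KO and 94.3% ± 2.46 in WT. Cox7a1 and Cox8b are also expressed in brown fat. Of 5 brown adipocyte genes, Ucp1 was listed at 0 in all 6 libraries, and the list summed to 0.921 to 1.89 FPKM in KO and to 1.39 to 2.20 FPKM in WT.

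**Figure D3:**
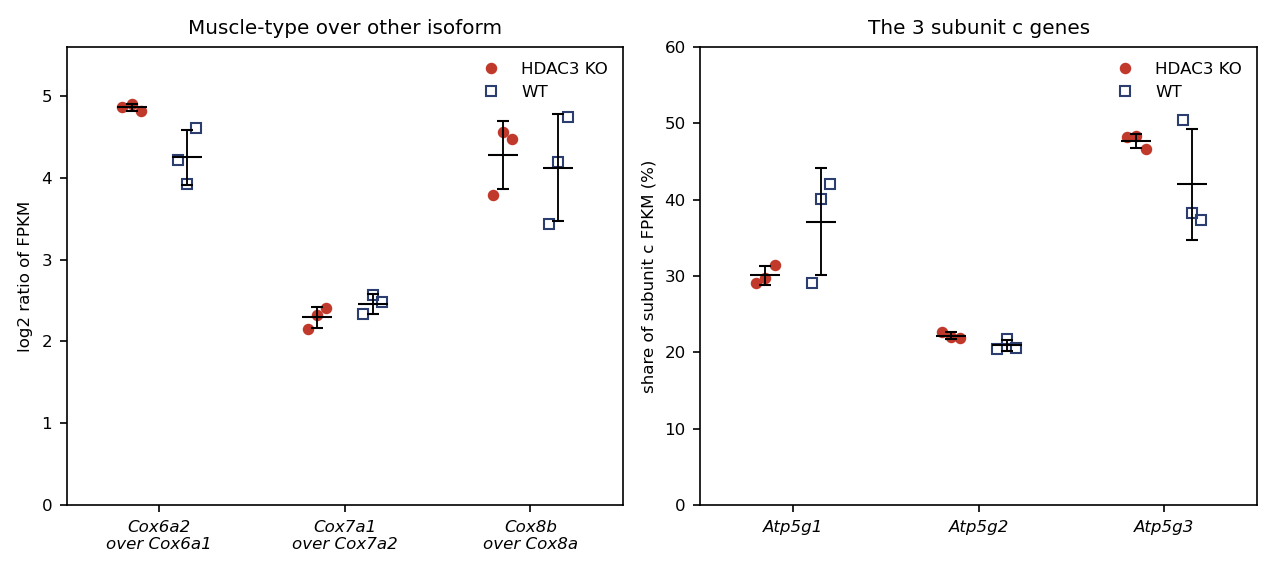
Left, log2 ratio of FPKM of the muscle-type over the other isoform in each library; right, share (%) of subunit c FPKM from each of its 3 genes; filled circles, HDAC3 KO; open squares, WT; bars, mean ± SD. KO libraries lie above all WT libraries for Cox6a2 over Cox6a1, and Atp5g1 has 29.1% to 31.5% of subunit c FPKM in KO and 29.1% to 42.1% in WT.

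ATP synthase had 15 members, 8 above and 7 below 0, and held both members with an unadjusted p under 0.05. Atp5b, the catalytic beta subunit, had 2108, 2218 and 2294 FPKM in KO libraries, against 1933, 1825 and 1609.5 FPKM in WT libraries. All KO libraries lay above all WT libraries, by 1.23-fold in the means. The log2 difference was 0.31 ± 0.12 (SE; limma, p = 0.0331, adjusted p = 0.205), and in the authors' deposited table q was 0.328. Atp5a1, the alpha subunit that alternates with beta in the head, had 1321, 1522 and 1593 FPKM in KO libraries, against 1347, 1271 and 1195 FPKM in WT libraries. It was higher by 1.16-fold in the means, with overlap and an adjusted p of 0.368 by limma.

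The peripheral stalk holds the head still against the turning rotor. Its top protein OSCP is encoded by Atp5o, which had 964, 994 and 1005 FPKM in KO libraries, against 861, 893 and 724 FPKM in WT libraries. The groups did not overlap, and the log2 difference of 0.26 ± 0.11 did not pass (SE; limma, adjusted p = 0.263). Without WT replicate 3 it was 0.17 (adjusted p = 0.378). The other stalk genes Atp5f1, Atp5h and Atp5j averaged 547, 904 and 472 FPKM in KO and 497, 896 and 495 FPKM in WT. Their log2 differences lay between -0.06 and 0.14.

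In the rotor's central stalk, Atp5c1 (gamma) averaged 744 ± 5.81 FPKM in KO and 801 ± 91.3 FPKM in WT, and Atp5e (epsilon) 1093 ± 88.0 and 1181 ± 103.5 FPKM. Atp5d (delta) had 138, 170.4 and 161 FPKM in KO libraries, against 106, 152 and 209 FPKM in WT libraries. Its WT range was wider than its KO range, and the coefficient of variation was larger in WT for 13 of the 15 ATP synthase members. None of the 3 central stalk genes passed, with adjusted p of at least 0.668 by limma.

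Subunit c, the ring that the proton flow turns, is encoded by Atp5g1, Atp5g2 and Atp5g3, which give the same mature protein with different import sequences. Atp5g1, whose promoter is shown above, had 389, 438 and 472 FPKM in KO libraries, against 440.2, 657 and 670.4 FPKM in WT libraries. WT replicates 2 and 3 lay above all KO libraries, and WT replicate 1 lay among them. The mean was 433 ± 41.6 FPKM in KO and 589 ± 129 FPKM in WT, a fold of 0.736. In the authors' deposited table q was 0.0256, whereas limma gave a log2 difference of -0.42 ± 0.18 (SE) and an adjusted p of 0.252. Without WT replicate 1 limma gave -0.62 and an adjusted p of 0.0618, and over all alternatives the adjusted p ranged from 0.0618 to 0.534. Atp5g2 had 303, 324 and 329 FPKM in KO libraries, against 310.1, 355 and 327 FPKM in WT libraries. Atp5g3 had 645, 712 and 699 FPKM in KO libraries, against 763, 625 and 595 FPKM in WT libraries. Neither passed, with limma adjusted p of 0.822 and 0.846.

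As a share of subunit c FPKM, Atp5g1 made up 29.1%, 29.7% and 31.5% in KO libraries, against 29.1%, 40.1% and 42.1% in WT libraries. WT replicate 1 again matched the KO libraries. The difference of the means was -6.99 percentage points (exact permutation p = 0.4, adjusted 0.533), and it was -10.99 without WT replicate 1 and -4.49 without WT replicate 3. Atp5g2 held 22.2% ± 0.424 in KO and 20.9% ± 0.683 in WT. Its share was 21.9% to 22.7% in KO libraries and 20.5% to 21.7% in WT libraries, without overlap, and was not tested. Atp5g3 had 48.2%, 48.3% and 46.6% in KO libraries, against 50.4%, 38.2% and 37.4% in WT libraries. The 3 genes together summed to 1337, 1475 and 1500.2 FPKM in KO libraries, against 1513, 1637 and 1593 FPKM in WT libraries, without overlap.

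Of the membrane subunits beside the ring, Atp5j2 had 1043, 1157 and 1161 FPKM in KO libraries, against 1011, 1014 and 1034 FPKM in WT libraries. KO libraries were higher without overlap, by 1.10-fold in the means (limma, adjusted p = 0.508). Atp5l averaged 1318 ± 33.4 FPKM in KO and 1348 ± 139 FPKM in WT. The 3 related genes outside the complexes were Cox7a2l, Atp5s and Atp5sl. Cox7a2l is known for a role in joining complexes III and IV into supercomplexes, which was not examined in this strain. The 3 genes averaged 146, 7.76 and 17.9 FPKM in KO and 139, 9.23 and 18.1 FPKM in WT, with adjusted p of at least 0.425 by limma.

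Spread between libraries was larger in WT than in KO for most of the set. The coefficient of variation had a median of 5.99% in KO and 12.1% in WT over the 42 members, and it was larger in WT for 33 of them (78.6%). Over all genes tested the medians were 13.2% in KO and 13.9% in WT, with WT larger for 52.9%. Over the 581 genes with a mean of at least 100 FPKM they were 8.38% and 11.1%, with WT larger for 62.1%. For the 37 members at that level they were 5.15% in KO and 11.4% in WT, with WT larger for 30, or 81.1%. The larger WT spread was not particular to this set. For 37 nuclear complex I genes with Nduf symbols the medians were 7.62% in KO and 12.0% in WT, with WT larger for 28. For 4 complex II genes they were 7.49% and 6.65%, with WT larger for 3. These figures describe the 6 libraries and were not tested.

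Much of the WT spread ran between replicates 1 and 3, with replicate 2 between them for 31 of 42 members. Replicate 3 was the higher for 16 members and replicate 1 for 26. Past 1.5-fold there were 7 members, all higher in replicate 3: Uqcrq by 3.27-fold, Uqcr11 by 2.45-fold, Uqcr10 by 2.21-fold, Atp5d by 1.98-fold, Cox8b by 1.96-fold, Cox6a2 by 1.73-fold and Atp5g1 by 1.52-fold. All 7 have a mean of at least 100 FPKM. They are 18.9% of the 37 such members, about the same share as the 19.1% among all 581 genes at that level. That 19.1% holds genes past 1.5-fold in either direction, and those higher in replicate 3 were not counted apart. These 7 were picked by their values, and they include 2 of the 3 muscle-type isoforms and the gene called in the authors' deposited table, Atp5g1. Among complex I genes with Nduf symbols, WT replicate 3 over replicate 1 reached 3.34-fold for Ndufb7 and 2.67-fold for Ndufs7. The largest the other way was Ndufb2, 1.48-fold higher in replicate 1. The 5 skeletal muscle markers did not move as one: WT replicate 3 over replicate 1 was 2.32-fold for Ckm, 1.71-fold for Acta1, 1.12-fold for Mb, 0.882-fold for Neb and 0.784-fold for Ttn. Their sum was 20930, 26070 and 29150 FPKM in KO replicates 1, 2 and 3, and 19030, 20380 and 31440 FPKM in WT replicates 1, 2 and 3. The part of this difference between libraries in the results was not tested. In KO, replicate 1 was the lowest library for 31 of 42 members, a share that was not counted over all genes. The FPKM sum was 464777 in KO replicate 1, against 492035 and 495099 in KO replicates 2 and 3. Relative depth was 0.660 there, against 0.832 and 0.674. Whether either bears on the order of the KO libraries was not tested.

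**Figure D4:**
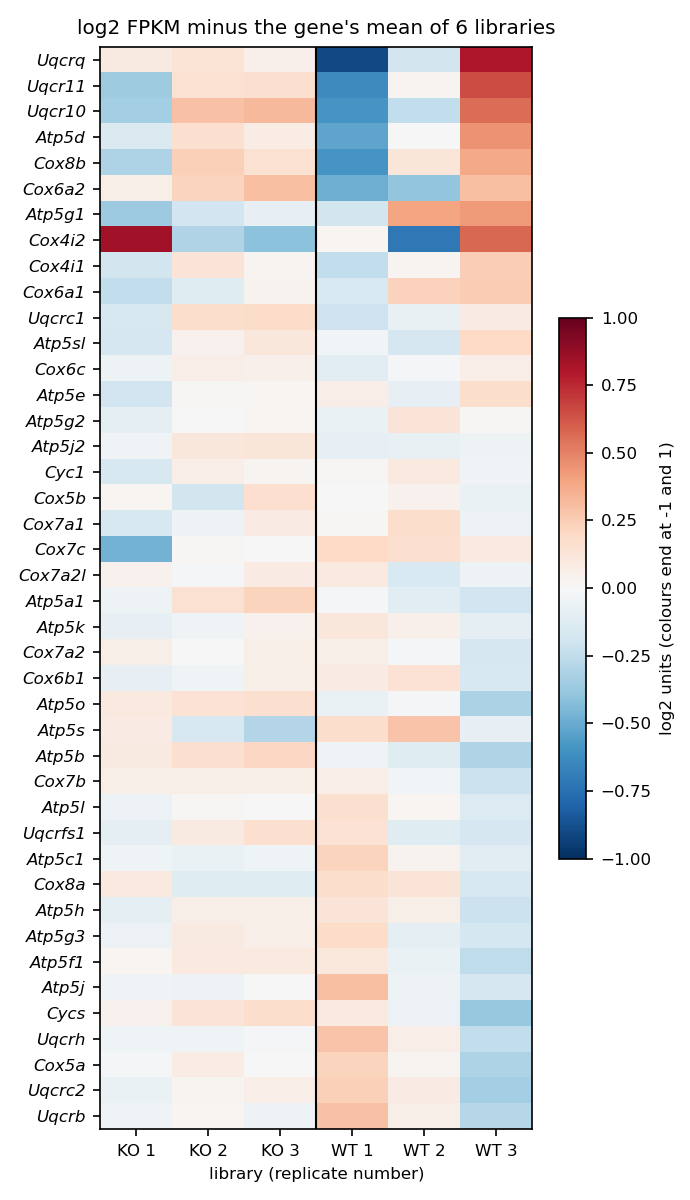
Log2 FPKM of each tested gene in each library minus the gene's mean over the 6 libraries, HDAC3 KO replicates left and WT replicates right, ordered by WT replicate 3 over replicate 1. WT replicates 1 and 3 hold opposite colours at the top and bottom of the map, from 3.27-fold higher Uqcrq in replicate 3 to 1.49-fold higher Uqcrb in replicate 1, while the KO columns are paler apart from Cox4i2 in KO replicate 1.

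Of 34 tested genes on the assembly and control lists of these complexes, limma called 1, or 2.94% against 3.65% of all genes tested. The lists include Ndufa4, Usmg5 and 2010107E04Rik, which are usually counted as subunits of complex IV or ATP synthase. These averaged 1576, 1097 and 1227 FPKM over the 6 libraries, and none was called. The authors' deposited table called 3, or 8.82% against 10.8%, so neither share stood above that of all genes. The call by limma was Tmem70. Tmem70, a membrane protein known in humans for its role in assembling ATP synthase around the subunit c ring, had 78.9, 80.0 and 79.0 FPKM in KO libraries, against 48.1, 41.6 and 35.7 FPKM in WT libraries. All KO libraries lay above all WT libraries, and Tmem70 rose 1.90-fold in the means. The log2 difference was 0.92 (limma, adjusted p = 0.0182), and in the authors' deposited table q was 0.00119. Its adjusted p passed in 8 of 12 alternatives and lay between 0.0148 and 0.0847 over all of them, with log2 differences between 0.81 and 1.02. It failed to pass without KO replicate 1 (0.0623), KO replicate 3 (0.0724) or WT replicate 2 (0.0847), and with replicate numbers as a block (0.0628).

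Tmem70 was the only one of 6 genes on the ATP synthase list called by limma or in the authors' deposited table. Of 6 complex III assembly genes in the table, 0 were called by limma (2 at an unadjusted p under 0.05) and Uqcc1 alone in the authors' deposited table. Uqcc1, an assembly factor for cytochrome b, had 82.4, 79.97 and 81.5 FPKM in KO libraries, against 59.2, 68.1 and 53.8 FPKM in WT libraries. KO was higher without overlap, with a log2 difference of 0.43 (limma, adjusted p = 0.0801) and a q-value of 0.0395 in the authors' deposited table. Of 22 tested genes on the complex IV list, 0 were called by limma (3 at an unadjusted p under 0.05) and Higd2a alone in the authors' deposited table. At an unadjusted p under 0.05 by limma, 19.7% of all genes tested passed. Higd2a, which acts in complex IV assembly, had 73.0, 86.2 and 85.7 FPKM in KO libraries, against 102, 117 and 151 FPKM in WT libraries. KO was lower without overlap, with a log2 difference of -0.57 (limma, adjusted p = 0.1003) and a q-value of 0.0105 in the authors' deposited table.

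Complexes II and I feed electrons into the same chain. Of 4 complex II genes and 37 nuclear genes with Nduf symbols of complex I, limma called 0, against 3.65% of all genes tested. At an unadjusted p under 0.05 there were 0 of complex II, and 2 higher and 2 lower Nduf genes, against 19.7% of all genes tested. The 37 were taken by symbol and include Ndufa4, also on the complex IV list above, and Ndufa4l2. Ndufs7 of complex I was the call in the authors' deposited table (q = 0.00213), which called 10.8% of the genes tested there. Ndufs7 had 100.4, 160.1 and 134 FPKM in KO libraries, against 120.0, 174 and 321 FPKM in WT libraries. These overlapped, and WT replicate 3 was the highest library (limma, adjusted p = 0.443). Medians of the log2 differences were 0.16 for complex II and 0.04 for the Nduf genes. The 6 mitochondrially encoded genes of complexes III, IV and ATP synthase were not analysed here.

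Fibre type bears on respiratory gene levels, so its markers were set beside them. For comparison, limma called 3.65% of all genes tested (19.7% at an unadjusted p under 0.05), and the authors' deposited table called 10.8% of those tested there. Of 9 fast fibre genes limma called 0 (1 at an unadjusted p under 0.05) and the authors' deposited table called the myosin light chain gene Myl1, lower in KO. Myl1 averaged 8242 ± 950.0 FPKM in KO and 12890 ± 1509 FPKM in WT, with a q-value of 0.0145 in the authors' deposited table and an adjusted p of 0.0732 by limma. Of 7 tested slow and type IIa genes limma called 0 (1 at an unadjusted p under 0.05) and the authors' deposited table called Myl3 higher in KO, with 109.9 ± 29.8 FPKM in KO and 74.6 ± 18.8 FPKM in WT. Of these 7, 5 were above and 2 below 0. Tnni1 was the 1 at an unadjusted p under 0.05. It had 2.34, 2.32 and 3.78 FPKM in KO libraries, against 1.35, 1.16 and 1.13 FPKM in WT libraries, without overlap (limma, adjusted p = 0.0664). Myh2, with means of 204 FPKM in KO and 211 FPKM in WT, gave the largest part of the slow and IIa sum. Summed slow and IIa genes ranged from 257 to 452 FPKM in KO and from 231 to 483 FPKM in WT, and summed fast genes from 66990 to 81210 FPKM in KO and from 72350 to 77910 FPKM in WT. Both ranges overlapped.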

How the data were processed

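The authors deposited, for 24354 genes, FPKM values in each library and a p-value and q-value comparing the genotypes. The submitters' processing notes name TopHat2, Cuffdiff and mm9. Their versions, the annotation, strandedness and library scaling were not given in the sources used here. Of 14 samples, the 6 RNA-seq libraries were used, and the HDAC3 peak lists and the nascent RNA libraries were not used here.

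Log2(FPKM + 1) of the 10501 genes with a mean of at least 1 FPKM over the 6 libraries was fitted with limma 3.58.1 (R 4.3.3; mean-variance trend, two-sided, Benjamini-Hochberg over all genes, threshold 0.05), which understates changes of low genes. The fit was also run on simulated data, whose noise was independent between genes and libraries. That run cannot show how the fit behaves where many genes shift together in a library. Isoform ratios and shares within libraries were compared with an exact permutation test over libraries. Alternatives were a pseudocount of 0.1, no filter, the 9204 genes tested by the authors, rescaling to TPM, median-of-ratios scaling, the replicate number as a block, and leaving out each library.

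Counting depth is unknown. Relative depth was read from genes under 0.3 FPKM, whose ratios to WT replicate 1 lay within 0.01 on the log2 scale of ratios of small whole numbers for 85.8% to 89.0% of genes. The number of libraries limits precision. Members and lists were chosen with earlier results of these data known. By the rule for named genes, members get values where they form an isoform family, had groups without overlap, were called or had an unadjusted p under 0.05, or were highest or lowest of their complex, and genes of other pathway lists where called. Other members given singly, such as Uqcrc1, Uqcr10, Uqcr11, Uqcrh and Atp5a1, and the marker genes were chosen for their roles or after their values were seen.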

Additional observations from a re-analysis of the deposited data

How the results depend on the processing

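The count of members called by limma was 0 in the main setting and 0 to 1 with 1 library left out. Cox6a2, without WT replicate 3, was the 1 call. With calls by q in the authors' deposited table it was 1, and at a q-value under 0.1 it stayed 1. It was 0 with a pseudocount of 0.1, no filter, the genes the authors tested, TPM, median-of-ratios scaling and the replicate block. Over all genes, limma called 383, against 36 with the replicate block, 247 with no filter and 21 to 231 with 1 library left out. The count over all genes thus varied with the setting and with which library was left out. Whether the replicate numbers pair the libraries is not known here. Same-numbered KO and WT libraries deviated from their group means with correlations of 0.0370, 0.0524 and 0.0467 over 10501 genes. Libraries of unlike numbers had correlations from -0.0864 to 0.0316, so each correlated best with its own number. Such weak correlations of deviations from means of 3 cannot decide whether the libraries were paired. In this balanced design the block cannot change a difference of means, only its test: the log2 ratio differences were 0.61 for Cox6a2 over Cox6a1 (exact sign-flip p = 0.25), -0.17 for Cox7a1 over Cox7a2 (p = 0.25) and 0.15 for Cox8b over Cox8a (p = 0.5), where 3 pairs allow no p under 0.25. With 1 library left out these ran from 0.45 to 0.79, from -0.23 to -0.098 and from -0.19 to 0.46, the last reversed without WT replicate 1. The Atp5g1 share difference ran from -10.99 to -4.49 percentage points. A pseudocount of 1 changed no sign. Of 42 members, 20 changed sign in some alternative, none with a log2 difference beyond 0.18 in size, while 12 stayed higher and 10 lower in KO throughout.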
